A study of Homo sapiens with 9 samples.

Results

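HEK293E cells that had received the siRNA siERH-5 were compared with HEK293E cells that had received siERH-3, both siRNAs against ERH, by counting small RNA reads per miRNA hairpin. The comparison used 3 of the 9 libraries of the study, chosen by their titles: siERH-5 replicate 2, siERH-3 replicate 2 from the same experimental group (Group 2), and siERH-3 replicate 1 from Group 1. HEK293E is a derivative of the human embryonic kidney line HEK293. All HEK293E cells were transfected with Lipofectamine 2000 on days 0 and 3 and harvested on day 5, and 4 further HEK293E libraries received a control siRNA, siGFP or siControl, in each of the 2 groups. K562 cells, a leukaemia line with erythroid features, were electroporated with siGFP or siERH-5 and harvested after 4 days (Group 3, 1 library each), and siERH-3 was not used in the K562 libraries here.

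ERH is a small nuclear protein that binds DGCR8, the partner of the nuclease DROSHA in the Microprocessor. The Microprocessor cuts hairpins out of primary miRNA transcripts, and ERH is known to help the cutting of poor substrates that lie beside a good one. Knockdown studies commonly use several siRNAs per gene so that their effects can be compared. ERH mRNA is not seen by small RNA sequencing, so the depth of knockdown by each siRNA was not measured here.

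The 3 libraries held 3089570 (siERH-3 replicate 1), 3106187 (siERH-3 replicate 2) and 3244489 (siERH-5) hairpin counts, with 1297, 1288 and 1289 of the 1485 hairpins of the table detected. Levels are given as CPM (counts per 1e+06) after TMM scaling, and every ratio as log2 of CPM + 1. Markers of HEK293 cells from the HOX clusters, miR-10a, miR-10b, miR-196a and miR-615, summed to 28914, 25608 and 26734 CPM in the 3 libraries in that order, against 4355 and 5067 CPM in the K562 libraries. The 7 haematopoietic marker hairpins summed to 1985, 1938 and 2071 CPM in HEK293E, against 165330 and 130804 CPM in K562. Most of the HEK293E sum came from hsa-mir-486-1 (894, 852 and 836 CPM) and its copy hsa-mir-486-2 (894, 851 and 835 CPM). hsa-mir-142 had 153, 196 and 341 CPM, and the rest were lower, down to hsa-mir-223 at 0.593, 1.52 and 1.42 CPM. A small RNA library counts relative amounts only, so fewer cells and less RNA per cell cannot be told apart, and the synthetic spike-in RNAs were not used here. Nothing in the labels says that replicates were separate cultures.

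Among the 821 hairpins that averaged 10 counts or more over the 3 libraries, siERH-5 and siERH-3 gave closely similar profiles, with 774 (94.3%) within 2-fold. The median size of the log2 ratio between siRNAs was 0.23, and the median gap between the 2 siERH-3 libraries was 0.23 as well. The ratio exceeded that gap in 411 hairpins (50.1%), and its SD was 0.50 against 0.42 for the gap. The siERH-3 libraries come from different experimental groups, so their gap also holds the difference between groups. Among the 153 hairpins that reached 1000 CPM in any of the 3 libraries, 152 stayed within 1.5-fold, from hsa-let-7e at -1.06, the exception, up to hsa-mir-99a at 0.54.

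A hairpin was called different when siERH-5 stood at least 2-fold from siERH-3 replicate 2, lay outside both siERH-3 libraries, and was farther from the nearer of them than they were from each other, and when the exact (Clopper-Pearson) 95% counting interval of the count ratio excluded equality. By this rule 28 hairpins were higher with siERH-5 (3.41% of those kept) and 8 were lower (0.974%), 36 in all (4.38%), or 26 and 8 names when copies of 1 hairpin were counted once. siERH-5 has a single library, so these are descriptions with no replicate check and no p-value, and the intervals cover counting error only. The same rule between control siRNAs called 19 of 733 hairpins for siControl against siGFP (2.59%), 6 higher (0.819%) and 13 lower (1.77%), and 20 of 712 for siGFP against siControl (2.81%), 9 higher (1.26%) and 11 lower (1.54%). None of the 19 was among the 36, but the 36 are only 4.38% of the hairpins kept, so nothing is read from that. Without the spread criterion, 33 (4.02%) were higher and 14 (1.71%) lower with siERH-5, against 11 (1.34%) in each direction between the siERH-3 libraries. With siERH-3 replicate 2 left out, so that replicate 1 was the reference and no spread could be used, 42 were higher and 27 lower, and with replicate 1 left out 33 and 13. Of the 28 higher hairpins 16 were also at least 2-fold above siERH-3 replicate 1, and of the 8 lower ones 5 were at least 2-fold below it.

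**Figure D1:**
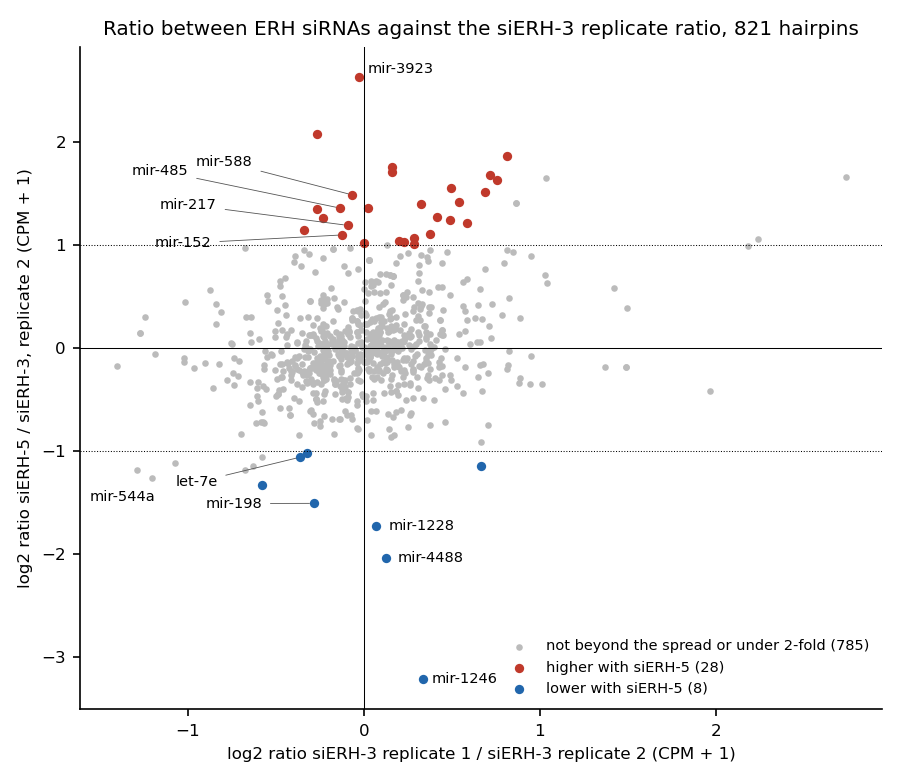
Each point is 1 of 821 hairpins, with the log2 ratio of the siERH-3 replicates on the x axis and the log2 ratio of siERH-5 to siERH-3 in replicate 2 on the y axis, both from CPM + 1. Dotted lines mark 2-fold, and hsa-mir-1246 lies lowest at -3.22 while the siERH-3 libraries differed by 0.34.

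The mature sequences that carry the main differences are shown first, from RefSeq (GRCh38.p14), 5′ to 3′, with the seed (bases 2 to 8, which pair with targets) in capitals. RefSeq held a sequence for 33 of the 36 called hairpins, and the 56 mature sequences of these carried 54 different seeds. Counts are per hairpin, so the 5p and 3p arms were not separated. The first is shown because its hairpin differed most. hsa-miR-3923 follows as the largest ratio in favour of siERH-5, hsa-miR-198 as near absent in the controls, and hsa-let-7e-5p as the only abundant one called.
hsa-miR-1246: aAUGGAUUuuuggagcagg
hsa-miR-3923: aACUAGUAauguuggauuaggg
hsa-miR-198: gGUCCAGAggggagauagguuc
hsa-let-7e-5p: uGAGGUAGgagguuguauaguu
Hairpins of 1 host gene on chromosome 2 were all higher with siERH-5, and their seeds differ, as the next lines show.
hsa-miR-216a-5p: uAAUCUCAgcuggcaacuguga
hsa-miR-216b-5p: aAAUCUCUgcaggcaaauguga
hsa-miR-217-5p: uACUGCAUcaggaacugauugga
The miR-376 hairpins of chromosome 14 are near-identical neighbours, and miR-376a-3p and miR-376b-3p are 1 of the 2 pairs of called sequences that share a seed.
hsa-miR-376a-3p: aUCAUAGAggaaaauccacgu
hsa-miR-376b-3p: aUCAUAGAggaaaauccauguu
hsa-miR-376c-3p: aACAUAGAggaaauuccacgu

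The largest difference was in hsa-mir-1246, which was high in both siERH-3 libraries and near control level with siERH-5. It had 50.7 and 39.9 CPM in siERH-3 replicates 1 and 2 (171 and 131 counts) and 3.41 CPM (12 counts) with siERH-5. The control libraries held 3.43 and 5.97 CPM in replicate 1 and 1.26 and 2.66 CPM in replicate 2 (siGFP, then siControl), so siERH-5 lay within the 4 controls, though above both of its own group (log2 ratio 0.61), and the siERH-3 libraries lay above all 4. The log2 ratio was -3.22, a level 9.29-fold higher with siERH-3, with a counting interval of -4.54 to -2.70 on the log2 scale. In K562, siERH-5 had 37.4 CPM (137 counts) against 14.8 CPM (35 counts) with siGFP, a log2 ratio of 1.28.

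The miR-1246 hairpin lies on the minus strand of chr2:176600980-176601052 (GRCh38), with no annotated gene on that strand around it in GENCODE 29. Its 73 bases are shown with the mature sequence, positions 11 to 29 from the 5′ end, in capitals.
hsa-mir-1246: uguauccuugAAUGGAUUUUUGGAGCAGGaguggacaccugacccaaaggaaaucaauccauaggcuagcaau
The mature sequence is identical to a stretch of the U2 spliceosomal RNA, RNU2-1, and matched 19 annotated small RNA transcripts, all snRNA. Reads from U2 fragments and from this hairpin therefore cannot be told apart. Only kept hairpins with a RefSeq sequence were searched for such matches, which leaves out hsa-mir-6087. Nuclear tRNAs were not among the small RNAs searched. Of the hairpins searched, 7 had a mature sequence inside another annotated small RNA. hsa-mir-1246 was the only one of them matched by an snRNA and the only one called, beside 4.38% of all hairpins kept. The median log2 ratio of these 7 was -0.21.

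Apart from hsa-let-7e, the other lower hairpins were of low to moderate level. hsa-mir-4488 had 16 and 14 counts with siERH-3 and 1 count with siERH-5, a log2 ratio of -2.04 with a counting interval of -9.31 to -1.19. The controls held 2 to 7 counts of it. hsa-mir-1228, from an intron of LRP1, a lipoprotein receptor gene, stood at 19.3 and 18.3 CPM with siERH-3 and 4.83 CPM with siERH-5, a log2 ratio of -1.73 beside a gap of 0.07 between the siERH-3 libraries. Its controls were at 6.85, 17.6, 6.32 and 10.6 CPM (siGFP and siControl of replicate 1, then of replicate 2), all between siERH-5 and siERH-3.

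Unlike the rest, hsa-mir-198 was above the controls with both ERH siRNAs. It overlaps an exon of FSTL1, a secreted follistatin-like protein gene. It had 0 counts in 3 control libraries, which allows up to 3 counts in each, and 1 count in siControl replicate 2. With siERH-3 it had 56 and 67 counts (16.6 and 20.4 CPM), and with siERH-5 23 counts (6.53 CPM). The log2 ratio between siRNAs was -1.51, with a counting interval of -2.40 to -0.94, so siERH-5 stood between the controls and siERH-3.

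Only 1 abundant hairpin was called, hsa-let-7e, a member of the let-7 family of growth-restraining miRNAs, from an intron of SPACA6. It had 796 and 1022 CPM with siERH-3 and 490 CPM with siERH-5, a log2 ratio of -1.06 to replicate 2 and -0.70 to replicate 1. The controls ranged from 258 to 637 CPM, so siERH-5 lay within them and both siERH-3 libraries above. Its neighbours hsa-mir-99b and hsa-mir-125a were not called.

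hsa-mir-6087, listed here among the rRNA-derived entries, had 134 and 84.2 CPM with siERH-3 and 37.5 CPM with siERH-5. The control libraries were at 113 and 110 CPM in replicate 1 and at 70.8 and 48.6 CPM in replicate 2. The log2 ratio was -1.15, while the siERH-3 libraries themselves differed by 0.67. hsa-mir-675, cut from the exon of the imprinted transcript H19, had 32.0 and 40.2 CPM with siERH-3 and 19.3 CPM with siERH-5 (log2 ratio -1.02), with controls at 20.8 to 27.7 CPM. This call ends with library totals or DESeq2 size factors (-0.99 in each) and with the RPM table (-0.98). The last, hsa-mir-6758 in an exon of MARS, a methionyl-tRNA synthetase gene, rested on 12 and 19 counts against 6, with a log2 ratio of -1.33.

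Of the 8 lower hairpins, both siERH-3 libraries lay above all 4 controls in 6. siERH-5 lay below all 4 controls in 5, within them in 2 and above them in 1, hsa-mir-198. The choice of the 8 placed siERH-5 low and siERH-3 high beside it. How often all hairpins kept take such positions is not given here, so nothing is read from these counts.

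**Figure D2:**
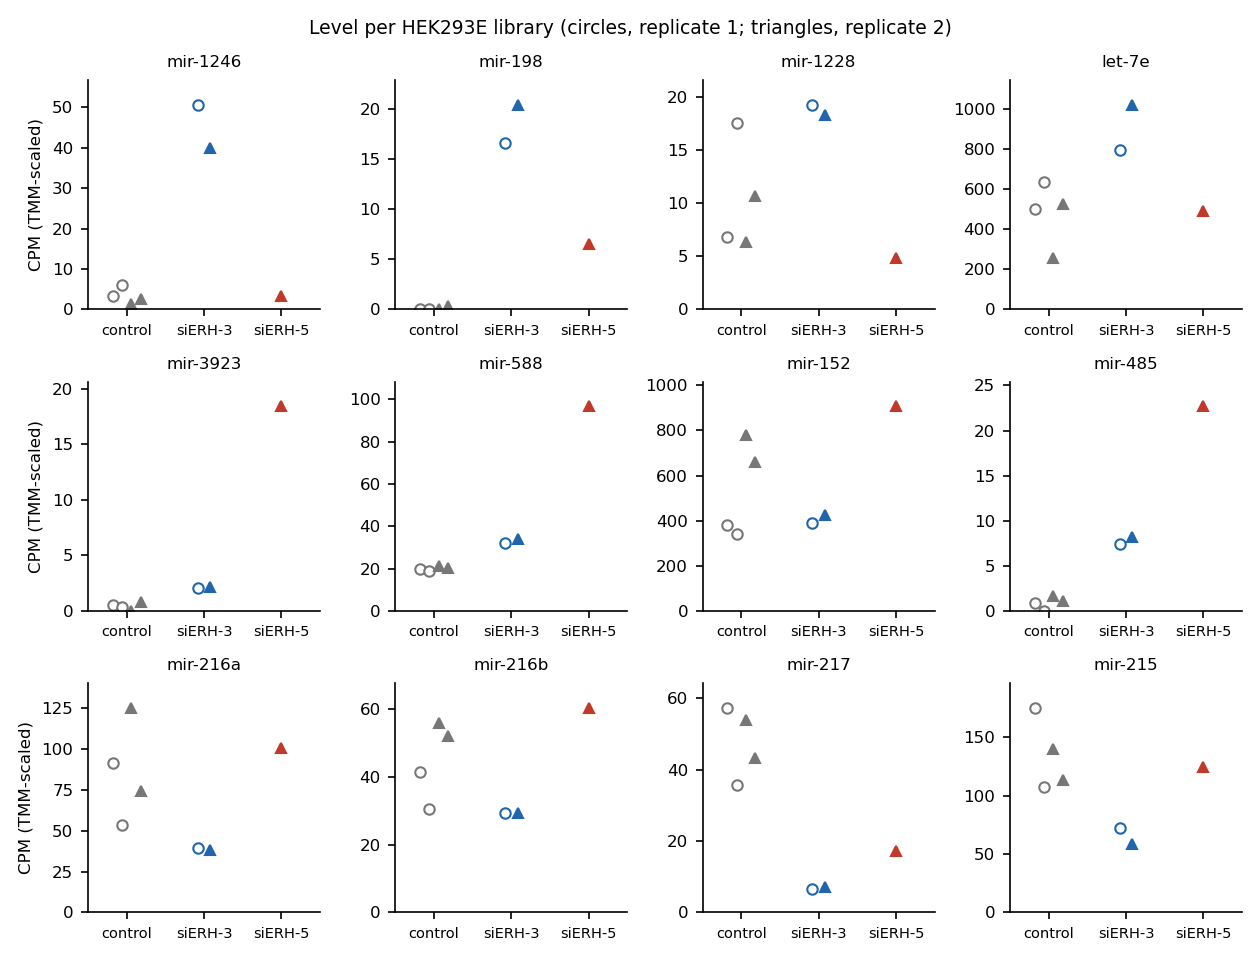
Levels of 12 called hairpins in TMM-scaled CPM on linear axes from 0, 1 point per HEK293E library, with the 4 controls in grey, siERH-3 in blue and siERH-5 in red. In the top row siERH-5 is below siERH-3, as for hsa-mir-1246 at 3.41 against 39.9 CPM in replicate 2, and in the other rows it is above.

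The hairpin with the largest ratio in favour of siERH-5 was hsa-mir-3923, at chr3:79507887-79507969 on the plus strand outside annotated genes of that strand. It had 7 counts in each siERH-3 library (2.07 and 2.13 CPM) and 65 counts (18.5 CPM) with siERH-5. The controls had 0 to 2 counts, so the ERH siRNA libraries were above them all, siERH-5 by far the most. The log2 ratio was 2.63, with a counting interval of 1.99 to 4.48. K562 showed 10 counts after siERH-5 and 0 after siGFP.

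hsa-mir-588, at chr6:126484631-126484713 on the plus strand, showed the same order at higher counts. The controls were at 19.99, 18.96, 21.1 and 20.1 CPM (siGFP and siControl of replicate 1, then of replicate 2), siERH-3 at 32.3 and 33.8 CPM, and siERH-5 at 96.8 CPM. The log2 ratio between siRNAs was 1.49 (interval 1.20 to 1.84) and the siERH-3 libraries differed by 0.07 in size. The call rule itself set siERH-5 apart from siERH-3, and both siERH-3 libraries lay above every control. In K562 it had 11 counts after siERH-5 and 3 after siGFP.

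Only hsa-mir-152 among the higher hairpins had over 1000 counts in each siERH library. It lies in an intron of COPZ2, a coat protein gene, belongs to the miR-148/152 family, and is named here after its values were seen. It had 389 and 423 CPM with siERH-3 and 908 CPM with siERH-5, a log2 ratio of 1.10 (interval 1.01 to 1.19). The controls were at 382 and 341 CPM in replicate 1 and 782 and 661 CPM in replicate 2. Within replicate 2, siERH-3 was thus below both controls and siERH-5 above them. In replicate 1 siERH-3 was slightly above both controls (log2 ratio 0.11), and the controls of the 2 groups did not overlap. K562 moved the same way with siERH-5, from 103 to 212 CPM, a log2 ratio of 1.03.

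All 3 hairpins of the host gene MIR217HG were called higher, beside 3.41% of all hairpins kept. In each the siERH-3 libraries lay below all 4 controls. These miRNAs are best known from the pancreas. They lie on the minus strand of chromosome 2, hsa-mir-217 at chr2:55982967-55983076, hsa-mir-216a at chr2:55988950-55989059 and hsa-mir-216b at chr2:56000714-56000795, with 5873 and 11654 bases between neighbours. hsa-mir-216b and hsa-mir-217 are named after their values were seen.

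hsa-mir-216a had 91.1 and 53.4 CPM in the controls of replicate 1 (siGFP, then siControl) and 125 and 74.1 CPM in those of replicate 2. It was at 39.1 and 38.4 CPM with siERH-3 and stood at 100.5 CPM with siERH-5, a log2 ratio of 1.36. For hsa-mir-216b the controls held 30.5 to 56.1 CPM, siERH-3 29.3 CPM in both libraries and siERH-5 60.5 CPM, a log2 ratio of 1.02. In both hairpins siERH-5 was thus within or above the control range and siERH-3 below it.

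hsa-mir-217 differed from its neighbours, being low with both siRNAs. It had 35.8 to 57.4 CPM in the controls, 6.52 and 7.01 CPM with siERH-3 and 17.3 CPM with siERH-5, a log2 ratio of 1.19. Summed over the 3 hairpins, siERH-3 gave 74.96 and 74.7 CPM and siERH-5 178 CPM, 2.39-fold higher, with controls at 120 to 235 CPM. Each of the 3 was called for being at least 2-fold higher, so the sum had to be so too and adds no support. K562 held 2 counts of these hairpins after siERH-5 and 5 after siGFP, too few for a ratio.

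The p53-linked hairpin hsa-mir-215 showed the same pattern. It had 107 to 175 CPM in the controls, 72.0 and 58.8 CPM with siERH-3 and 125 CPM with siERH-5, a log2 ratio of 1.07 to replicate 2 and 0.78 to replicate 1. Its neighbour hsa-mir-194-1 had 670 and 667 CPM with siERH-3 and 842 CPM with siERH-5, a log2 ratio of 0.34, and was not called. The p53-linked list of 7 hairpins was split. hsa-mir-192, both copies of hsa-mir-194 and hsa-mir-215 had ratios of 0.33 to 1.07, with 1 called higher (beside 3.41% of all hairpins kept). The 3 miR-34 hairpins, named after their values were seen, were lower with siERH-5 but under 2-fold: hsa-mir-34a had 10865 and 10462 CPM against 7363 CPM (-0.51), hsa-mir-34b 100.7 and 99.4 against 61.0 CPM (-0.69), and hsa-mir-34c 256 and 233 against 148 CPM (-0.64). Between the control siRNAs in replicate 2, hsa-mir-34b and hsa-mir-34c were called higher with siControl than with siGFP (log2 ratios 1.89 and 1.61). The median over the 7 p53-linked hairpins was 0.33.

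Hairpins of the imprinted chromosome 14 cluster, a long array of miRNAs expressed from the maternal allele, were above the controls with both siRNAs and higher with siERH-5 than with siERH-3. Summed over all 50 hairpins of the cluster in the table, the controls had 26.0, 24.2, 21.5 and 21.3 CPM, siERH-3 80.3 and 84.2 CPM, and siERH-5 147 CPM (518 counts). The sum was 1.75-fold higher with siERH-5 than with siERH-3 replicate 2, while the siERH-3 libraries differed by a factor of 0.954. The 3 groups of libraries did not overlap. Leaving out hsa-mir-485, the member with the most counts, gave 1.64-fold, and counting each copy set once gave 1.69-fold. All these sums hold called hairpins, which were chosen for being higher with siERH-5. Neither the sums nor the lack of overlap therefore adds support to the calls. In K562 the sum was 692 CPM with siGFP and 572 CPM with siERH-5.

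Of those 50, 12 passed the filter on low counts, which averages the 3 libraries, and 8 of them would have passed on the siERH-3 libraries alone. The others could pass only with their siERH-5 count, so nothing is read from how many of the 12 were above siERH-3. The called ones were 6, listed here with their values, beside 3.41% of all hairpins kept. hsa-mir-485 had 0 to 1.69 CPM in the controls, 7.41 and 8.23 CPM with siERH-3 and 22.7 CPM with siERH-5, a log2 ratio of 1.36. It lies at chr14:101055419-101055491 on the plus strand. The miR-376 hairpins, side by side upstream of it, ranged from 1.24 (hsa-mir-376c) to 1.69 (hsa-mir-376a-2), with hsa-mir-376a-1 at 1.55 and hsa-mir-376b at 1.36.

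These rest on few counts: hsa-mir-376a-2 had 14 and 7 counts with siERH-3 and 32 with siERH-5, and copies such as hsa-mir-376a-1 and hsa-mir-376a-2 may share reads. The sixth called member, hsa-mir-411 in an intron of MEG8, had 5 and 7 counts against 21, with a log2 ratio of 1.15. Not every kept member was above both siERH-3 libraries with siERH-5. hsa-mir-544a, named after its values were seen, had 0 or 1 count in each control library, 28 and 67 counts with siERH-3 and 28 with siERH-5. Its log2 ratio was -1.26, but the siERH-3 libraries differed by 1.20 in size, so it was not called. hsa-mir-369, also named after its values were seen, had 41 and 12 counts with siERH-3 and 18 with siERH-5. Its log2 ratio was -1.11 to replicate 1 and 0.39 to replicate 2.

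The chromosome 19 cluster, a primate-specific array best known from placenta, gave a similar picture. Its 46 hairpins summed to 28.1 to 43.5 CPM in the controls, 60.4 and 68.0 CPM with siERH-3 and 118 CPM with siERH-5, a 1.74-fold difference between siRNAs in replicate 2. Of the 11 that passed the filter only 4 would have passed on siERH-3 alone, so nothing is read from their direction. The called ones were 2, beside 3.41% of all hairpins kept, and the sum holds them. These were hsa-mir-520b, with 12 and 9 counts with siERH-3 and 23 with siERH-5 (log2 ratio 1.01, or 0.99 and no call with deposited RPM), and hsa-mir-526b, with 9 and 7 against 19 (1.03). Many members of this array are near-identical, so their values are not independent, and 1 copy per name gave 1.76-fold. In K562 the sum was 33.3 CPM with siGFP and 71.3 CPM with siERH-5.

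A group of 6 hairpins on the minus strand of the X chromosome, chosen after the values were seen because it holds hsa-mir-892c, behaved alike. hsa-mir-888, hsa-mir-890, hsa-mir-891b, hsa-mir-892a, hsa-mir-892b and hsa-mir-892c summed to 10.5 to 20.7 CPM in the controls, 38.2 and 52.4 CPM with siERH-3 and 103 CPM with siERH-5. The sum was 1.97-fold higher with siERH-5 than with siERH-3 replicate 2, beside a factor of 0.729 between the siERH-3 libraries. All 6 passed the filter, 4 of them on siERH-3 alone. hsa-mir-892c was the 1 member called, beside 3.41% of all hairpins kept, and it is part of the sum. It had 8 and 3 counts with siERH-3 and 21 with siERH-5, a log2 ratio of 1.86 (interval 0.96 to 5.09). hsa-mir-888 went from 11.9 and 14.9 CPM to 28.96 CPM, a log2 ratio of 0.91. Their K562 counts were 14 after siERH-5 and 2 after siGFP.

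**Figure D3:**
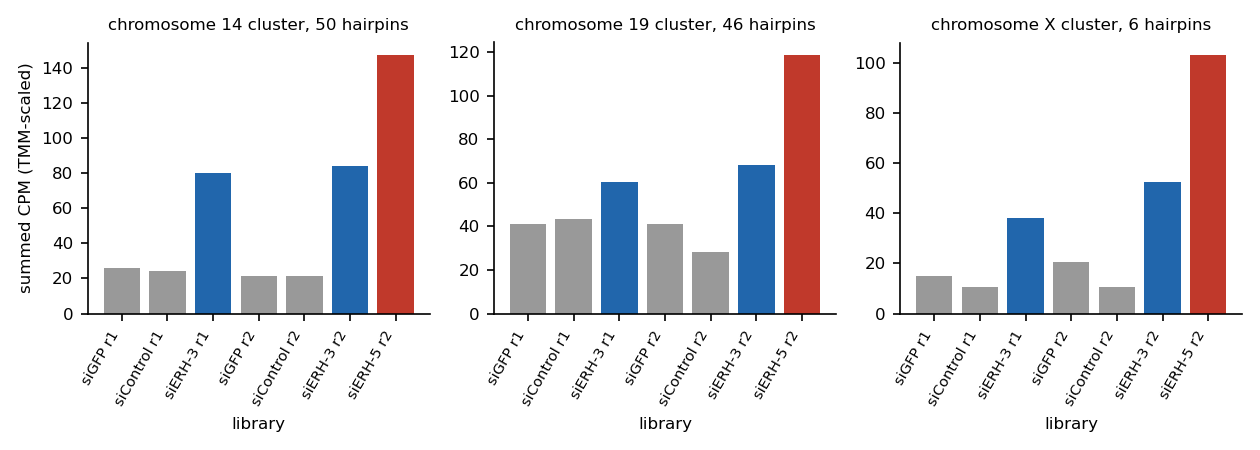
Summed TMM-scaled CPM over all hairpins in the table of the chromosome 14, 19 and X clusters, 1 bar per HEK293E library, controls in grey, siERH-3 in blue and siERH-5 in red. Bars start at 0, and siERH-5 is the tallest in each panel, at 147, 118 and 103 CPM. The sums include the called hairpins, which were chosen for being higher with siERH-5.

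**Figure D4:**
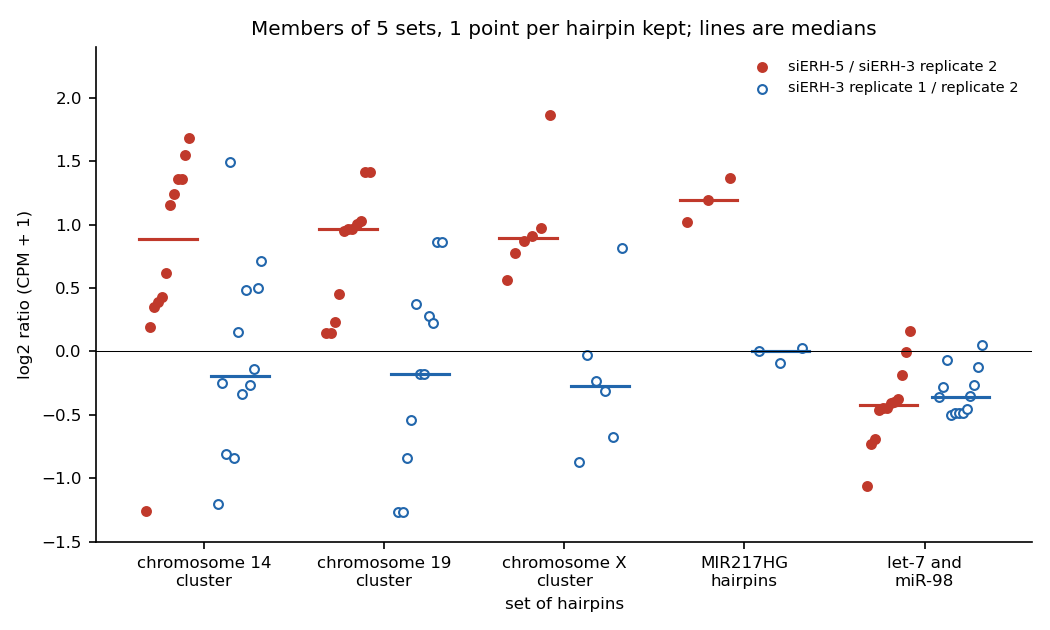
Each point is a hairpin that passed the count filter, with the log2 ratio of siERH-5 to siERH-3 in replicate 2 (filled) or of siERH-3 replicate 1 to 2 (open), and lines are medians. The let-7 median is -0.43 beside a replicate median of -0.36, and in the chromosome 14, 19 and X clusters 8 of 12, 4 of 11 and 4 of 6 points would have passed the filter on siERH-3 alone, so their medians carry no direction of their own. All MIR217HG hairpins were called, so the call rule set the direction of their median.

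The remaining higher hairpins were scarce. hsa-mir-2115, in an intron of SPINK8, had 2 and 3 counts with siERH-3 and 25 with siERH-5, a log2 ratio of 2.08 (interval 1.24 to 5.33). Its controls held 4 to 14 counts, between siERH-3 and siERH-5. hsa-mir-135a-1, in an intron of GLYCTK-AS1, had 5 and 4 counts against 23 (1.76), and its copy hsa-mir-135a-2, in an intron of RMST, 5 and 4 against 22 (1.71).

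Counts were as low for the other named hairpins of that size. hsa-mir-4683 overlaps an exon of FZD8, a Wnt receptor gene, and had 11 and 5 counts against 24 (1.63). hsa-mir-4670, in an intron of ECM2, had 12 and 6 against 25 (1.52). Values for hsa-mir-552 were 12 and 7 against 26 (1.42), and for hsa-mir-4524a, in an intron of ABCA6, 15 and 11 against 37 (1.40).

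hsa-mir-150, a lymphoid miRNA, had 10 and 12 counts against 36 (1.27). It was the only called hairpin of the 8 in the haematopoietic list, beside 3.41% of all hairpins kept. The last 4 higher hairpins, hsa-mir-3919, hsa-mir-184, hsa-mir-3682 and hsa-mir-4484, had log2 ratios of 1.04 to 1.28, and of these hsa-mir-4484 had the most counts, 165 and 139 with siERH-3 against 311. In all, 19 of the 28 higher hairpins had under 50 counts with siERH-5. The median mean count was 17.7 for higher and 75.7 for lower hairpins. At a mean of at least 100 counts, 6 of 432 hairpins were higher and 4 lower.

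Against the 4 controls, siERH-5 lay above in 24 of the 28 higher hairpins, within in 3 and below in 1, hsa-mir-217. In 8 of the 28 the siERH-3 libraries were both above the controls as well, and in 8 both were below. All these ratios share the same control libraries. The choice of the 28 placed siERH-5 high and siERH-3 replicate 2 low beside it. The share of all hairpins kept in these positions is not given here, so the counts are a description only. Just under the threshold lay hsa-mir-489 (log2 ratio 0.997) on the higher side and hsa-mir-1268a (-0.91) on the lower side, and just past it hsa-mir-520b (1.01) and hsa-mir-675 (-1.02).

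The let-7 family with miR-98 was lower with siERH-5 than with siERH-3 replicate 2, but not than with replicate 1. Of 12 hairpins 11 had a ratio below 0 with a median of -0.43, and the siERH-3 libraries themselves differed by a median of -0.36 (replicate 1 over replicate 2). The median of siERH-5 over siERH-3 replicate 1 was 0.04. Summed, the family had 15461 and 20860 CPM with siERH-3, 15433 CPM with siERH-5, and 12431 to 18225 CPM in the controls, so siERH-3 replicate 2 was the highest of the 7 HEK293E libraries. hsa-let-7e alone was called, beside 0.974% of all hairpins kept that were called lower. hsa-let-7b (log2 ratio -0.69) and hsa-let-7d (-0.73), named after their values were seen, were also below both siERH-3 libraries, but by less than 2-fold.

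A list of 13 hairpins that differ between ERH and control siRNAs had a median log2 ratio of 0.09 between siERH-5 and siERH-3. The list was chosen on these HEK293E libraries, siERH-5 and siERH-3 included. Its levels against the controls, and the closeness of the 2 siRNAs in it, are therefore a description only. It does not hold every such hairpin: hsa-mir-198, hsa-mir-485, hsa-mir-544a and, with siERH-3, hsa-mir-1246 also stood far from the controls, with ratios between siRNAs of -1.51, 1.36, -1.26 and -3.22 in that order. None of the 13 was called, beside 4.38% of all hairpins kept, although hsa-mir-891a was past 2-fold under other scalings. Their ratios ran from -0.73 to 0.98. hsa-mir-4421 had 58.2 to 92.5 CPM in the controls, 2.37 and 3.05 CPM with siERH-3 and 3.97 CPM with siERH-5 (log2 ratio 0.30). For hsa-mir-3677 the values were 60.03 to 84.3 CPM, then 4.44 and 2.13 CPM, and 4.54 CPM (0.82), with a counting interval of -0.27 to 2.61.

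hsa-mir-124, a neuronal miRNA with 3 copies, was at 23.7 and 22.6 CPM with siERH-3 and 24.4 CPM with siERH-5 at its first copy, from 160 to 231 CPM in the controls. Its copies had ratios of 0.11, 0.11 and 0.09. hsa-mir-15a, the hairpin whose processing is known to depend on its neighbour miR-16-1, was at 3376 and 3782 CPM against 3874 CPM (0.03), from 6456 to 10969 CPM. hsa-mir-212 was lower with siERH-5, at 13.0 and 20.4 CPM against 11.9 CPM (-0.73), though siERH-3 replicate 1 was close to siERH-5.

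Other members were above the controls with both siRNAs. hsa-mir-891a had 6.08 to 20.7 CPM in the controls, 44.7 and 47.3 CPM with siERH-3 and 94.0 CPM with siERH-5, a log2 ratio of 0.98 that falls just short of 2-fold. With library totals it was 1.02, with DESeq2 size factors or deposited RPM 1.01, and it was then called higher, as it was at 1.05 against siERH-3 replicate 1. hsa-mir-891a was also called between the control siRNAs, lower with siControl than with siGFP in replicate 2 (log2 ratio -1.61). hsa-mir-3144 had 116 and 118 CPM against 154 CPM (0.38), with controls at 22.6 to 33.3 CPM. The 4 copies of hsa-mir-3179 had equal counts in each siERH library and may share reads. They had 56.3 and 56.4 CPM against 40.6 CPM (-0.46), with controls at 11.0 to 14.4 CPM.

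Other families were near the middle of all hairpins, whose median log2 ratio was -0.02 with 390 of 821 above 0. The miR-17-92 cluster and its paralogues, growth-promoting miRNAs, had a median of -0.03 over 13 hairpins and a range of -0.24 to 0.23. Medians were -0.01 over 6 hairpins of miR-15, miR-16, miR-195 and miR-497, 0.02 over 5 of the epithelial miR-200 family, 0.18 over 3 of miR-183, miR-96 and miR-182, 0.10 over 6 from the HOX clusters, and -0.03 over 48 of the transposon-derived miR-548 family. None of their hairpins was called, beside 4.38% of all hairpins kept.

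The 17 mirtrons and other hairpins that bypass DROSHA had a median of -0.20 with none called, beside a replicate median of 0.31. The 24 entries derived from snRNA, snoRNA, tRNA or rRNA had a median of -0.22, beside a replicate median of 0.25. Of these 2 were called lower, hsa-mir-1246 and hsa-mir-6087, beside 0.974% of all hairpins kept. Relative to siERH-3 replicate 2, both lists thus had a positive median for siERH-3 replicate 1 and a negative one for siERH-5. Relative to the replicate 2 controls, the mirtron median was 0.29 for siERH-5 and 0.20 for siERH-3 replicate 2. For the other list these medians were -0.31 and -0.11. The order of the siRNAs for mirtrons therefore depends on the reference. Stress and interferon linked hairpins (11) had a median of 0.13 with none called, and the 8 haematopoietic ones 0.50. Over all hairpins kept 4.38% were called, so no call among 17 or 11 hairpins is not read as a result.

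GC content differed between the sets of called hairpins. The hairpins of the higher set had a median GC content of 44.8% (28.8% to 66.7%) and those of the lower set 62.7% (38.7% to 82.3%), against 50.7% for all kept hairpins with a sequence. Over all kept hairpins with a sequence, GC content had a Pearson correlation of -0.10 with the log2 ratio between siRNAs. With the log2 ratio of siERH-3 replicate 1 to replicate 2 it was 0.16. The part of GC content in the ratios was not tested.

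K562 offers libraries that the choice of hairpins did not use, with siERH-5 against siGFP instead of siERH-3. Of the 28 higher hairpins 12 were measured there (a mean of at least 10 counts), and 5 of these had a ratio above 0, with a median of -0.07, against 56.0% of 646 K562 hairpins above 0 and a median of 0.11. Only hsa-mir-152 was at least 2-fold higher, where 9.75% of K562 hairpins were called higher by 2-fold and counting interval and 6.66% lower. hsa-mir-135a-1 went from 150 to 227 CPM (0.59), and hsa-mir-376a-2 from 24.1 to 15.8 CPM (-0.57). Of the 8 lower hairpins 4 were measured in K562, of which hsa-mir-1246 (1.28) and hsa-mir-6087 (0.40) were above 0, and hsa-let-7e (-0.57) and hsa-mir-675 (-0.31) below.

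**Figure D5:**
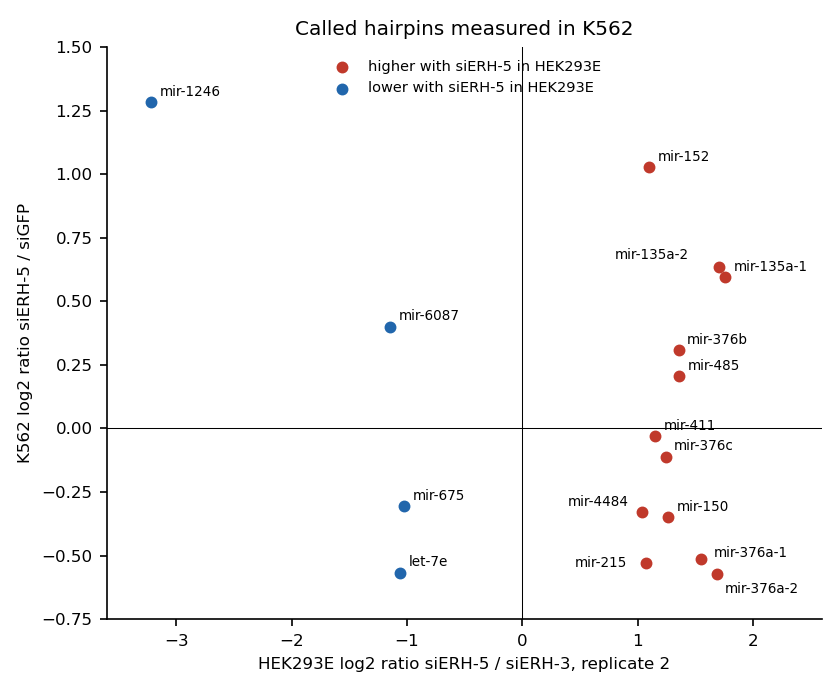
Each point is a called hairpin measured in K562, with the HEK293E log2 ratio of siERH-5 to siERH-3 in replicate 2 on the x axis and the K562 log2 ratio of siERH-5 to siGFP on the y axis. hsa-mir-1246 is at -3.22 in HEK293E and 1.28 in K562, and of the 12 hairpins higher in HEK293E 5 lie above 0 in K562.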

How the data were processed

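Small RNA libraries of 18 to 30 nt fragments were made from 10 µg of total RNA with 30 spike-in RNAs added, per the labels' protocols. The authors deposited raw counts per miRNA hairpin (1485 rows, blanks read as 0) and a table of RPM values, which equals the count plus 1 over the library total plus 1485, per 1e+06. Tools named in the submitters' processing notes are cutadapt, Bowtie2 and bedtools, with the build hg38; how reads that fit several copies were counted is not given in the sources used here. Adapters carried random nucleotides, but no source used here says that duplicate reads were merged.

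Group and replicate of each library were read from its title. Counts were scaled by TMM over the 7 HEK293E libraries (edgeR 4.0.16 in R 4.3.3), or within K562, and log2 ratios used CPM plus 1. edgeR and DESeq2 1.42.0 were used for scaling only. The ratio and call steps were tested on simulated data. Alternatives were other scalings, the RPM table, pseudocounts, count filters, thresholds, 1 copy per name, and leaving out each siERH-3 library.

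Named hairpins are hsa-mir-1246, the 12 called hairpins with the largest ratio in each direction (1 per set of copies), called hairpins of at least 1000 CPM, called members of a list, and the measured hairpins of a list that differs between ERH and control siRNAs. Others are marked in the text. Hairpins and lists were chosen with earlier results of these data known. Positions and host genes are from GENCODE release 29, matched by name for 1480 hairpins, and sequences from RefSeq for 1168. Ratios were computed with Python 3.11.15, numpy 2.4.6, pandas 2.3.3 and scipy 1.17.1, and figures with matplotlib 3.10.9.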

Additional observations from a re-analysis of the deposited data

How the results depend on the processing

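Other scalings (library totals, DESeq2 size factors, TMM over 3 libraries, the RPM table) gave 28 to 31 higher and 7 or 8 lower hairpins, and no call reversed in any setting. A pseudocount of 10 left 4 higher (hsa-mir-3923, hsa-mir-588, hsa-mir-216a, hsa-mir-152) and 2 lower (hsa-mir-1246, hsa-let-7e). A mean of at least 100 counts left 6 and 4, and a 1.5-fold threshold gave 62 and 31. Asking for 2 times the replicate gap left 20 higher and 5 lower. Leaving out 1 siERH-3 library each, which also drops the spread criterion, gave 33 to 42 higher and 13 to 27 lower. With a pseudocount of 10 the medians of the kept chromosome 14 and 19 hairpins were 0.31 and 0.32 in place of 0.88 and 0.96, values that the count filter helps to set. Against siERH-3 replicate 1 alone, medians were 0.0412 for the list of hairpins that differ between ERH and control siRNAs, 0.0417 for let-7, 0.19 for miR-15, miR-16, miR-195 and miR-497, -0.0792 for miR-200 and 0.19 for the p53-linked list, whose median was 0.37 with library totals and with the RPM table. The causes were not tested.

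Of the higher hairpins measured in K562, 7 in place of 5 were above 0 with library totals, which moved the median of all K562 hairpins from 0.11 to 0.37, above the 0.20 of these hairpins, a choice made after seeing the data, as was placing siERH-5 above both replicate 2 controls with library totals, which gave 26 hairpins in place of 25. No paired analysis was possible because siERH-5 and siERH-3 share only 1 replicate number. The single siERH-5 library, and under 50 counts in 19 of the 28 higher hairpins, limit the precision.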
